A study of Homo sapiens with 6 samples.

Results

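The genes described here are 203 expressed antisense RNA genes, out of 19775 genes with a probe set of their own on the array. They were taken by name, as symbols that end in -AS with or without a number, with EPB41L4A-AS1 left out. Each gene was read from the probe set that names it alone and has the highest mean over all 6 arrays, and it was kept where that mean was 5.5 or more on the log2 scale. The members were thus chosen by their name and by this mean, which gives all 6 arrays the same weight and so includes the treated ones. Of 791 antisense genes with a probe set of their own, 588 lay under the level. The nearest genes inside it were ZNF503-AS2 at a mean of 5.51 and NEXN-AS1 at 5.514, and the nearest outside it were KCNIP2-AS1 at 5.499 and SLC38A4-AS1 at 5.487.

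The cells were ARPE-19, an established human cell line from retinal pigment epithelium. One group was given SRPIN803, a small molecule known as an inhibitor of the kinases SRPK1 and CK2, at 10 µM for 4 h, and the other group was given the solvent, 0.1% DMSO, for the same time. Each group has 3 arrays, both groups were grown in medium with serum, and the labels name no genetic change in either. The labels do not say whether the 3 arrays of a group came from separate cultures, so the p-values rest on a spread between arrays that may be technical only.

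An antisense RNA gene is transcribed from the DNA strand opposite to the gene whose name it carries. Some start next to their partner's promoter and run away from it, and others start further along and run through it. Such transcripts are often nuclear and short-lived, and a few are known to recruit silencing complexes, to pair with a messenger RNA or to disturb transcription of the gene opposite. For most of the genes below no function of the RNA is established, so the clause given with each describes the protein of the gene it is named after. RefSeq lists 198 of the 203 as long noncoding RNA and 3 as antisense RNA, and the other 2, UBXN10-AS1 and TNRC6C-AS1, had no entry in the gene table used here.

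Far more antisense genes rose than fell in SRPIN803-treated cells. Of the 203, 42 rose (20.7%) and 1, RUSC1-AS1, fell, by limma with Benjamini-Hochberg adjustment over all genes and a call at an adjusted p under 0.05. The share called among all 19775 genes was 5.84%, split into 3.46% higher and 2.37% lower. Among the 12054 genes at 5.5 or more it was 8.54%, split into 4.87% higher and 3.68% lower. The members' median log2 change, SRPIN803 minus DMSO, was 0.171 with an interquartile range of 0.0393 to 0.358, beside a median of 0.0192 over all genes and 0.0205 over all genes at 5.5 or more. A change above 0 was found in 166 members (81.8%), against 56.3% of all genes at that level.

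The shift was of like size on each treated array. The median deviation of the members from their own DMSO means was 0.154, 0.206 and 0.178 on SRPIN803 arrays 1, 2 and 3, against 0.01, 0 and -0.001 on DMSO arrays 1, 2 and 3. The lowest SRPIN803 array was thus above the highest DMSO array. For the genes they are named after the same medians were -0.009, 0.035 and 0.012 on the SRPIN803 arrays, against -0.013, -0.005 and 0 on the DMSO arrays. In 95 members (46.8%) all 3 SRPIN803 arrays were above all 3 DMSO arrays, and in 8 (3.94%) all were below. Over all genes the same held for 15.2% and 10.4%, and over genes at 5.5 or more for 20.4% and 14.5%.

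**Figure D1:**
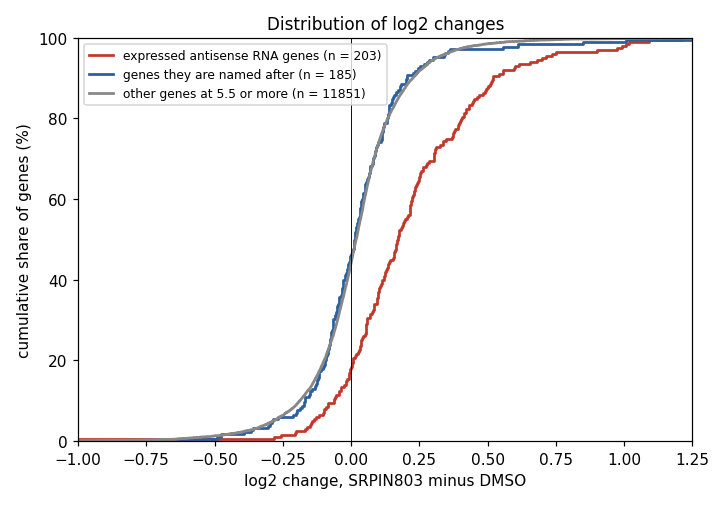
Cumulative share of genes (%, vertical axis) by log2 change, SRPIN803 minus DMSO (horizontal axis), for the 203 expressed antisense genes, the 185 genes they are named after and the other 11851 genes at 5.5 or more. The curve of the antisense genes lies to the right, with a median of 0.171 against 0.0133 for the genes they are named after and 0.0187 for the other genes. The axis ends before RUSC1-AS1 at -1.33 and ARRDC3 at 2.16.

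The count of called members depended on the arrays and on the level. With 1 array left out, 24, 25 or 22 members were called higher without DMSO array 1, 2 or 3, and 37, 34 or 27 without SRPIN803 array 1, 2 or 3, while the number of all genes called ran from 324 to 687 in the same fits. The members' median change stayed between 0.164 and 0.19. A gene near the level can pass through the group in which it is higher. In 16 members the DMSO mean lay under 5.5, 6 of them called higher, and in 1, STARD13-AS, the SRPIN803 mean did. Among the 186 members with both group means at 5.5 or more, 36 were called higher and 1 lower, with a median of 0.163. Of the 588 antisense genes under the level, 15 were called higher (2.55%) and 2 lower (0.34%), with a median of 0.0224. Over all genes at any level the shares were 3.46% and 2.37%. Of the 685 genes called higher 587 had a mean of 5.5 or more, and of the 469 called lower 443 did. The shares among genes under the level are therefore below 3.46% and 2.37%, which are not like figures for dim genes. Whether dim antisense genes differ from other dim genes was not tested.

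Rises were seen at each range of level. Of 110 members with a mean of 5.5 to 6.5, 15 were called higher (13.6%), beside 80 of 2000 other genes in that range (4%). From 6.5 to 8 the counts were 20 of 66 members (30.3%) and 188 of 2828 other genes (6.65%), and at 8 or more they were 7 of 27 members (25.9%) and 277 of 7023 other genes (3.94%). Other long noncoding RNA genes at 5.5 or more lay in between: 34 of 329 were called higher (10.3%) and 3 lower, with a median of 0.0845. Protein-coding genes at that level had 492 of 11323 called higher (4.35%) and 437 lower, with a median of 0.0162. The difference between the antisense genes and the other noncoding genes was not tested.

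**Figure D2:**
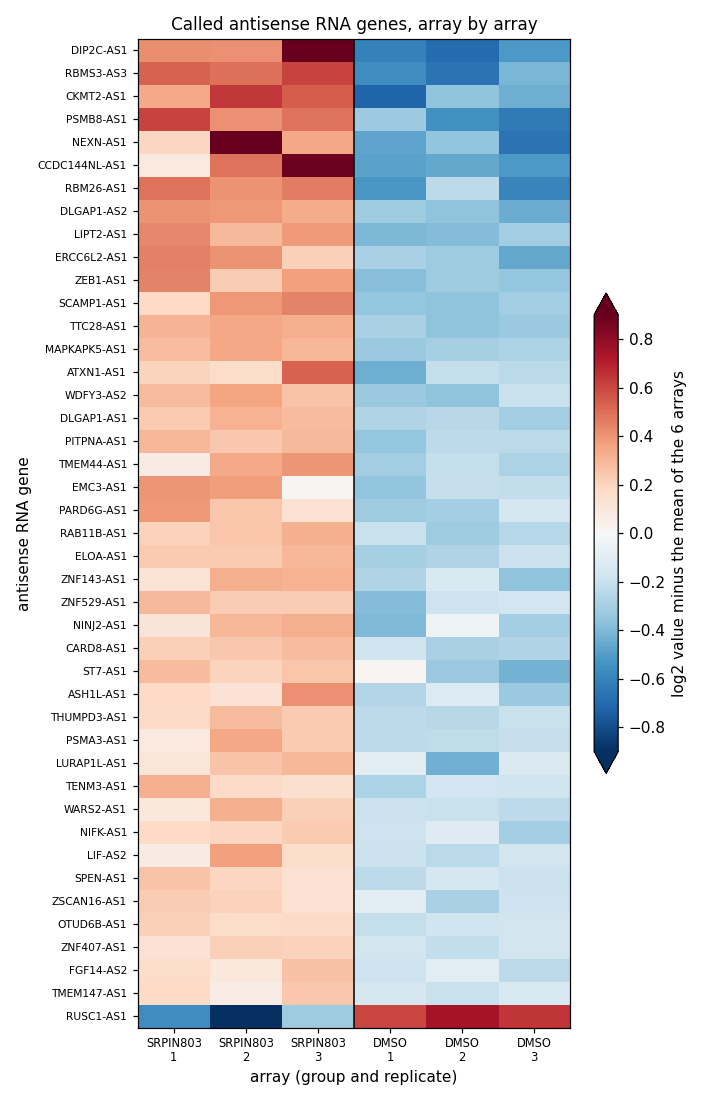
Log2 value minus the mean of the 6 arrays (colour) for the 43 called antisense genes (rows, by log2 change) on each array (columns, SRPIN803 left of DMSO). The 42 genes called higher are red on the SRPIN803 arrays and blue on the DMSO arrays, apart from near-white cells such as EMC3-AS1 on SRPIN803 array 3 and ST7-AS1 on DMSO array 1, and RUSC1-AS1 has the reverse pattern.

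RUSC1-AS1 was the only member called lower. Its gene lies opposite RUSC1, which encodes an adaptor protein, and overlaps FDPS, which encodes farnesyl diphosphate synthase of the sterol pathway. RUSC1-AS1 had 6.904, 6.345 and 7.144 on the SRPIN803 arrays, against 8.062, 8.207 and 8.102 on the DMSO arrays. The groups did not overlap, and the SRPIN803 arrays spread more widely than the DMSO arrays (SD 0.41 against 0.075, n = 3 each). The log2 change was -1.33 ± 0.18 (standard error, as for all changes below; limma, adjusted p = 0.00864). With any 1 array left out it ran from -1.50 to -1.10 and stayed called, the largest adjusted p being 0.0454.

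The neighbours of RUSC1-AS1 did not pass the test. RUSC1 changed by -0.07 ± 0.07 (limma, adjusted p = 0.676) and FDPS by -0.08 ± 0.06 (0.508). A second probe set of RUSC1-AS1, with a mean of 5.04, changed by -0.43 ± 0.10 and missed the threshold when all probe sets were tested (limma, adjusted p = 0.0735). Of the genes at 5.5 or more, those that followed RUSC1-AS1 most closely by Pearson's r over the 6 arrays were PPM1K (r = 0.998), NFKBIA (0.996), DERL2 (0.995), KANSL2 (0.995) and SLC2A6 (0.994). All 6 arrays share the treatment groups, so these values describe the arrays and carry no test. Of them NFKBIA, the inhibitor of NF-kappaB, fell by 0.66 ± 0.09 and SLC2A6, of the glucose transporter family, fell by 0.74 ± 0.09 (limma, adjusted p = 0.00962 and 0.00602). PPM1K, DERL2 and KANSL2 changed by only -0.09 ± 0.05, -0.08 ± 0.05 and -0.25 ± 0.06 and were not called (limma, adjusted p = 0.430, 0.504 and 0.0656).

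RUSC1-AS1 has 2 start sites in RefSeq's promoter table, and the second lies 92 bases from a start of RUSC1 on the other strand. The 300-base windows around these 2 starts, from 250 bases before to 50 after, share 191 bases. Which start of RUSC1-AS1 gives the RNA read here was not checked, and the window of its other start also overlaps one of RUSC1. The window of RUSC1-AS1 at the second start is shown because the 191 shared bases lie at a start of the only member that fell. It lies at chr1:155323796-155324095 on the minus strand of GRCh38.p14 and is printed 5′ to 3′, with capitals marking every match to 1 of 7 short motifs on either strand.
RUSC1-AS1: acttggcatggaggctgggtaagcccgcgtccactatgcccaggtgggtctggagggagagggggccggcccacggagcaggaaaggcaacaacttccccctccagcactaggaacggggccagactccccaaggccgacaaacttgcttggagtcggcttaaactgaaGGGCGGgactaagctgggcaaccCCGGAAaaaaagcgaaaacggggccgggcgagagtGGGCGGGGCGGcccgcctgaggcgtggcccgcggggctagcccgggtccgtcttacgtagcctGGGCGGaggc
The motifs searched were the CCAAT box (CCAAT), the TATA box (TATAAA), the GC box (GGGCGG), the E-box (CACGTG), an ETS core (CCGGAA), part of the cAMP response element (TGACG) and, with no name given here, GCATGC. The capitals in this window are matches to the GC box, some of them overlapping, and to the ETS core.

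These motifs were counted in the first window of every gene in the RefSeq table. Of the 203 members 156 had a window. GGGCGG was found in 59.6% of the members' windows and 44.6% of all 27305, and in 15 of the 34 windows of members called higher (44.1%). TGACG was in 37.2% of the members' windows and 25% of all, and in 17 of the 34 windows of members called higher (50%). CCGGAA was in 26.3% of the members' windows and 17.6% of all, and in 13 of the 34 called higher (38.2%). In the windows of 157 genes that members are named after, GGGCGG was in 68.8%, TGACG in 30.6% and CCGGAA in 26.1%. For the CCAAT box the shares were 30.8% of members and 35.7% of all, for TATAAA 6.41% and 12%, for CACGTG 9.62% and 7.43%, and for GCATGC 7.69% and 7.48%. Among the 34 windows of members called higher, CCAAT was in 29.4%, TATAAA in 8.82%, CACGTG in 5.88% and GCATGC in 11.8%. These are letter matches with no test, and windows that members share with their partners hold the same bases.

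The largest rises were in DIP2C-AS1, RBMS3-AS3, CKMT2-AS1 and PSMB8-AS1, the 4 members that rose 2-fold or more. DIP2C-AS1, opposite DIP2C of the disco-interacting family, had 5.941, 5.938 and 6.515 on the SRPIN803 arrays, against 4.914, 4.835 and 5.009 on the DMSO arrays. RBMS3-AS3, named after the RNA-binding protein gene RBMS3, had 7.064, 7.028 and 7.142 with SRPIN803, against 5.973, 5.865 and 6.123 with DMSO. Neither pair of groups overlapped, and SRPIN803 array 3 stood above the other 2 treated arrays for DIP2C-AS1. The log2 changes were 1.21 ± 0.15 for DIP2C-AS1 and 1.09 ± 0.08 for RBMS3-AS3 (limma, adjusted p = 0.00607 and 0.000838), a fold of 2.32 and 2.13. DIP2C-AS1 has a mean of 4.92 over the DMSO arrays, so it reached the level of 5.5 through the treated ones, and its further probe set, at a mean of 5.46, changed by 0.37 ± 0.12 (limma over all probe sets, adjusted p = 0.161). The genes they are named after, neither called, changed by -0.15 ± 0.08 for DIP2C and 0.18 ± 0.06 for RBMS3.

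CKMT2-AS1, opposite the gene of a mitochondrial creatine kinase of muscle, had 7.339, 7.633 and 7.543 with SRPIN803, against 6.275, 6.636 and 6.554 with DMSO. PSMB8-AS1, beside the gene of an immunoproteasome subunit, had 7.012, 6.816 and 6.889 with SRPIN803, against 6.078, 5.855 and 5.763 with DMSO. Again every treated array was above every DMSO array. CKMT2-AS1 rose by 1.02 ± 0.11 and PSMB8-AS1 by 1.01 ± 0.10 (limma, adjusted p = 0.00456 and 0.00247), while CKMT2 changed by -0.13 ± 0.09 and PSMB8 by 0.09 ± 0.07, neither called. PSMB8-AS1 also overlaps TAP1, a peptide transporter of antigen presentation, which changed by -0.14 ± 0.07 and was not called.

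The windows of these 2 genes are shown because they stand for the main placements among the members. PSMB8-AS1 starts 39 bases from PSMB8 on the other strand, and their windows share 138 bases. CKMT2-AS1 starts further than 1 kb from CKMT2 and runs across it. The PSMB8-AS1 window is chr6:32843836-32844135 on the plus strand and the CKMT2-AS1 window chr5:81301520-81301819 on the minus strand, both of GRCh38.p14 from RefSeq, with motif matches in capitals as above.
PSMB8-AS1: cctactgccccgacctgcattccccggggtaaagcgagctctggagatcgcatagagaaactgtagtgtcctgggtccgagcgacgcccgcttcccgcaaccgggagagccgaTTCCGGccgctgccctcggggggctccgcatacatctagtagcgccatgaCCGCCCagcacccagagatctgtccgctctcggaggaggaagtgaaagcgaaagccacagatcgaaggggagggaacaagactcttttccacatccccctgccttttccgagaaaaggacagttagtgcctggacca
CKMT2-AS1: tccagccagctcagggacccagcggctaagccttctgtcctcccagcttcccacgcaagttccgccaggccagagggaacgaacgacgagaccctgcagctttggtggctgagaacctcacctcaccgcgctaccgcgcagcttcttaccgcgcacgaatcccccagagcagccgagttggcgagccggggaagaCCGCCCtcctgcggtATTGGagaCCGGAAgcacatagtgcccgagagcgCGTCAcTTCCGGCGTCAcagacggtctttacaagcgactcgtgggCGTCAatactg
The capitals in the PSMB8-AS1 window are 1 match each to CCGGAA and GGGCGG, and those in the CKMT2-AS1 window are 7 matches to the CCAAT box, the ETS core, the GC box and the part of the cAMP response element.

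NEXN-AS1 and CCDC144NL-AS1 rose nearly as far but with more spread. NEXN-AS1, beside the gene of the actin-binding protein nexilin, had 5.709, 6.461 and 5.861 with SRPIN803, against 5.041, 5.161 and 4.852 with DMSO. CCDC144NL-AS1 had 5.697, 6.094 and 6.488 with SRPIN803, against 5.129, 5.145 and 5.091 with DMSO. The groups did not overlap for either gene, and 1 treated array stood highest in each, array 2 for NEXN-AS1 and array 3 for CCDC144NL-AS1. The changes were 0.99 ± 0.19 and 0.97 ± 0.17 (limma, adjusted p = 0.0255 and 0.0222). Both lost the call without any 1 of the DMSO arrays, NEXN-AS1 also without SRPIN803 array 3 and CCDC144NL-AS1 without SRPIN803 array 2, with the largest adjusted p at 0.104 and 0.0882, and both have a DMSO mean under 5.5.

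Several rises of 1.5 to 2-fold were tighter. RBM26-AS1, whose start lies 54 bases from that of the RNA-binding protein gene RBM26, had 6.432, 6.346 and 6.404 with SRPIN803, against 5.422, 5.712 and 5.353 with DMSO. DLGAP1-AS2, opposite the gene of a synaptic scaffold protein, had 7.323, 7.311 and 7.251 with SRPIN803, against 6.601, 6.557 and 6.472 with DMSO. LIPT2-AS1, beside the gene of a lipoyl transferase, had 6.947, 6.806 and 6.898 with SRPIN803, against 6.113, 6.124 and 6.206 with DMSO. For all 3 genes the treated arrays lay together above the DMSO arrays. RBM26-AS1 rose by 0.90 ± 0.10, DLGAP1-AS2 by 0.75 ± 0.06 and LIPT2-AS1 by 0.74 ± 0.06 (limma, adjusted p = 0.00418, 0.00138 and 0.00179), and each kept the call with any 1 array left out. RBM26-AS1 had a DMSO mean of 5.495, just under 5.5, so it too reached the level through the treated arrays. Its further probe set, at a mean of 3.37, changed by 0.50 ± 0.17 (limma over all probe sets, adjusted p = 0.191). RBM26 changed by -0.09 ± 0.07, and DLGAP1 and LIPT2 had no probe set of their own here.

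The next rises belonged to ERCC6L2-AS1, ZEB1-AS1, SCAMP1-AS1, TTC28-AS1 and MAPKAPK5-AS1. ERCC6L2-AS1, beside a DNA repair helicase gene, rose by 0.72 ± 0.08, and ERCC6L2 changed by 0.20 ± 0.06. ZEB1-AS1, which starts 107 bases from ZEB1, the repressor that drives epithelial-to-mesenchymal transition, had 6.976, 6.759 and 6.898 with SRPIN803, against 6.148, 6.21 and 6.18 with DMSO. The groups did not overlap. ZEB1-AS1 rose by 0.70 ± 0.07 (limma, adjusted p = 0.00315), while ZEB1 changed by -0.21 ± 0.08 (0.167).

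SCAMP1-AS1, whose start lies 76 bases from that of a secretory carrier membrane protein gene, rose by 0.68 ± 0.08, beside 0.05 ± 0.07 for SCAMP1. TTC28-AS1 had 8.135, 8.183 and 8.162 with SRPIN803, against 7.541, 7.472 and 7.501 with DMSO. MAPKAPK5-AS1, beside the gene of a kinase downstream of MAP kinases, had 8.688, 8.754 and 8.709 with SRPIN803, against 8.072, 8.107 and 8.124 with DMSO. Replicates of these 2 genes lay close together in each group, far from the other group. TTC28-AS1 rose by 0.66 ± 0.05 and MAPKAPK5-AS1 by 0.62 ± 0.05 (limma, adjusted p = 0.00164 and 0.00205). TTC28 changed by 0.14 ± 0.07 and MAPKAPK5 by -0.07 ± 0.06, neither called.

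ATXN1-AS1 at 0.60 ± 0.11 and WDFY3-AS2 at 0.60 ± 0.07 were the other members that rose 1.5-fold or more, which makes 16 in all. The remaining called members rose by 0.33 to 0.56 on the log2 scale, from TMEM147-AS1 to DLGAP1-AS1. Among them were DLGAP1-AS1 (0.56 ± 0.06) and PITPNA-AS1 (0.56 ± 0.06), opposite a phosphatidylinositol transfer protein gene. TMEM44-AS1 rose by 0.54 ± 0.09, EMC3-AS1 by 0.52 ± 0.11, PARD6G-AS1 by 0.52 ± 0.08, RAB11B-AS1 by 0.52 ± 0.06 and ELOA-AS1 by 0.51 ± 0.06. The genes opposite them encode, among others, a subunit of the ER membrane insertion complex (EMC3), a recycling endosome GTPase (RAB11B) and the elongin A transcription elongation factor (ELOA). Rises of 0.45 to 0.50 were found in ZNF529-AS1, NINJ2-AS1, CARD8-AS1, ST7-AS1, ASH1L-AS1, THUMPD3-AS1 and PSMA3-AS1. Below these came TENM3-AS1, WARS2-AS1, LIF-AS2, SPEN-AS1, ZSCAN16-AS1, OTUD6B-AS1, ZNF407-AS1 and FGF14-AS2. Adjusted p over the 42 ran from 0.000838 to 0.0498 (limma).

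Of the 42 members called higher, 20 kept the call with any 1 array left out and 21 lost it in 1 to 5 of those fits. Among the larger of these rises, ATXN1-AS1 lost it without any 1 DMSO array or SRPIN803 array 1, TMEM44-AS1 without any 1 DMSO array or SRPIN803 array 2 or 3, EMC3-AS1 without any 1 DMSO array or SRPIN803 array 1 or 2, and PARD6G-AS1 without DMSO array 1 or 2. LURAP1L-AS1 lost it in all 6, and the lowest change of any of the 42 in these fits was 0.286.

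The members with the highest deposited values did not pass the test. FGD5-AS1 had 11.278, 11.192 and 11.252 with SRPIN803, against 10.984, 11.014 and 11.06 with DMSO, and OIP5-AS1 had 10.954, 11.007 and 11.009, against 10.816, 10.905 and 10.874. The groups did not overlap for either gene, and the changes were 0.22 ± 0.06 for FGD5-AS1 (limma, adjusted p = 0.0701) and 0.13 ± 0.06 for OIP5-AS1 (0.285). FAM131B-AS2, which RefSeq places on the same strand as FAM131B, changed by 0.31 ± 0.07 (0.0520) and was called without SRPIN803 array 1. WAC-AS1, PRR34-AS1 and MSC-AS1 changed by 0.04 ± 0.07, 0.06 ± 0.06 and 0.02 ± 0.07.

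Members whose arrays all lay lower with SRPIN803, besides RUSC1-AS1, were LOXL1-AS1 (-0.28 ± 0.09), KLF3-AS1, GABPB1-AS1 (-0.20 ± 0.09), AGAP2-AS1, IDI2-AS1, VPS9D1-AS1 and SNAI3-AS1 (-0.10 ± 0.06), named after their values were seen. None passed the test, the smallest adjusted p being 0.116 for LOXL1-AS1 (limma). GABPB1-AS1 has no single direction, since 2 further probe sets of it were called higher, at 0.99 ± 0.11 and 0.64 ± 0.12 (limma over all probe sets, adjusted p = 0.00691 and 0.0319). Beside RUSC1-AS1, FRMD6-AS1 and TMPO-AS1 had the widest spread within a group. FRMD6-AS1 had 6.174, 5.55 and 6.453 with SRPIN803, against 6.052, 6.205 and 6.172 with DMSO, and TMPO-AS1 had 6.374, 5.56 and 5.73, against 5.576, 5.348 and 5.496. In both genes the groups overlapped and 1 treated array stood apart, array 2 for FRMD6-AS1 and array 1 for TMPO-AS1.

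The members were then set beside the genes they are named after. Of these partners 185 had a probe set of their own, 24 of them under 5.5, and 18 members had none to compare. Among the 185 partners 9 were called higher and 6 lower (8.11%), with a median log2 change of 0.0133, close to the 5.84% and 0.0192 over all genes. Without DMSO array 1, 2 or 3 the counts were 4, 5 or 4 higher and 2, 2 or 3 lower. Without SRPIN803 array 1, 2 or 3 they were 7, 4 or 4 higher and 5, 4 or 3 lower.

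No pair had both genes called higher. Of the 36 members called higher that had a partner to compare, 3 partners were called lower and 33 were not called. Among all 185 partners 4.86% were called higher and 3.24% lower, and among all genes 3.46% and 2.37%. Counts this small over 36 partners are no result about the pairs. The partners of these 36 changed by -0.63 to 0.20, with a median of -0.0318 and 19 below 0, while the median of the 42 members called higher was 0.517. Over all 185 pairs, the antisense gene was above 0 and its partner below 0 in 72, both were above 0 in 79, both below 0 in 14, and the reverse of the first held in 20. Across the pairs Pearson's r of the 2 changes was -0.073, a description over 185 pairs measured on the same 6 arrays. ASH1L-AS1, whose own partner had no probe set to compare, overlaps MSTO1, which fell by 0.27 ± 0.06 (limma, adjusted p = 0.0486). The difference between the antisense gene and its partner was higher on all 3 SRPIN803 arrays than on any DMSO array in 68 pairs, and lower in 16. Taken alone, 46.8% of members were higher in this way and 3.94% lower. For partners the shares were 16.2% and 13%, and for all genes 15.2% and 10.4%. The pair difference includes the members' own rise, so these counts are no separate result.

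**Figure D3:**
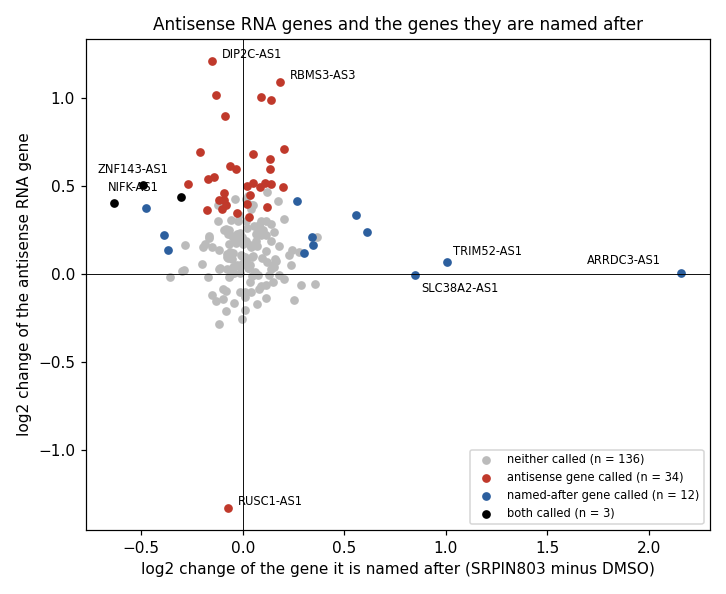
Log2 change, SRPIN803 minus DMSO, of each antisense gene (vertical axis) against that of the gene it is named after (horizontal axis), 1 point per pair, coloured by which of the 2 was called. Called antisense genes sit above the horizontal line with partners between -0.63 and 0.20, except RUSC1-AS1 at -1.33, and the called partners ARRDC3, TRIM52 and SLC38A2 sit far to the right near 0 on the vertical axis.

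The 3 pairs called in opposite directions were NIFK, ZNF143 and LURAP1L. NIFK encodes a nucleolar protein that binds the proliferation marker Ki-67. NIFK-AS1 had 8.409, 8.422 and 8.468 with SRPIN803, against 8.042, 8.113 and 7.924 with DMSO. NIFK had 10.771, 10.554 and 10.716 with SRPIN803, against 11.296, 11.426 and 11.222 with DMSO. The groups of both genes were apart, the antisense gene higher and NIFK lower on every treated array. NIFK-AS1 rose by 0.41 ± 0.07 and NIFK fell by 0.63 ± 0.08 (limma, adjusted p = 0.0167 and 0.00690). The difference of the 2 within each array moved by 1.04 (SD 0.115 over SRPIN803 arrays and 0.03 over DMSO arrays, n = 3 each). NIFK was called in all 6 fits that drop 1 array, and NIFK-AS1 lost the call without DMSO array 1, DMSO array 3 or SRPIN803 array 3, with an adjusted p of up to 0.0683.

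ZNF143 encodes a zinc finger activator that binds many promoters. ZNF143-AS1 had 7.197, 7.4 and 7.387 with SRPIN803, against 6.805, 6.938 and 6.711 with DMSO. ZNF143 had 8.198, 8.266 and 8.352 with SRPIN803, against 8.757, 8.819 and 8.712 with DMSO. Neither gene's groups overlapped. ZNF143-AS1 rose by 0.51 ± 0.09 and ZNF143 fell by 0.49 ± 0.07 (limma, adjusted p = 0.0173 and 0.00770), and the difference within each array moved by 1.0 (SD 0.07 with SRPIN803 and 0.06 with DMSO). ZNF143-AS1 lost the call without DMSO array 1 or 3 or SRPIN803 array 2 or 3, with an adjusted p of up to 0.0748.

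The windows of this pair are shown because the genes start 314 bases apart on opposite strands and moved in opposite directions. The windows share 187 bases, and the shared stretch is the start of each, read from opposite strands. ZNF143-AS1 lies at chr11:9460649-9460948 on the minus strand and ZNF143 at chr11:9460762-9461061 on the plus strand of GRCh38.p14, from RefSeq, with motif matches in capitals.
ZNF143-AS1: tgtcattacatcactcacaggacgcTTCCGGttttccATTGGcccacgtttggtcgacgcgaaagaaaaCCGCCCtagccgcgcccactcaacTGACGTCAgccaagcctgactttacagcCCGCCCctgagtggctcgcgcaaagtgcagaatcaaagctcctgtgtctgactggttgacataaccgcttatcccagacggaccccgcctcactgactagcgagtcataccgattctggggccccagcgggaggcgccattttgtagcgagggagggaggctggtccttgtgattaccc
ZNF143: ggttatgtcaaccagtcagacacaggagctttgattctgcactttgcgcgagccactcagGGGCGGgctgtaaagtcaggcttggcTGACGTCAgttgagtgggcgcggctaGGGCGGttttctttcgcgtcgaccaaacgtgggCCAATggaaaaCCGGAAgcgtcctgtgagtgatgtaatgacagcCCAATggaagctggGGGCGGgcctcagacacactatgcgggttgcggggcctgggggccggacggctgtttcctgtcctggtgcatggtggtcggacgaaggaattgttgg
The shared stretch holds TGACG on both strands in 1 overlapping run, the ETS core beside the CCAAT box, and the GC box, and these capitals appear in both windows in opposite orientation.

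LURAP1L-AS1 had 6.369, 6.518 and 6.565 with SRPIN803, against 6.164, 5.829 and 6.133 with DMSO. LURAP1L had 8.277, 8.406 and 8.225 with SRPIN803, against 8.588, 8.65 and 8.581 with DMSO. The groups did not overlap, but the gap between the nearest arrays was narrow for both. The changes were 0.44 ± 0.10 and -0.30 ± 0.07 (limma, adjusted p = 0.0498 and 0.0423). LURAP1L-AS1 lost its call in each of the 6 fits that drop 1 array (adjusted p up to 0.136), and LURAP1L lost it in 5 of 6 such fits, all but that without SRPIN803 array 2 (up to 0.141).

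**Figure D4:**
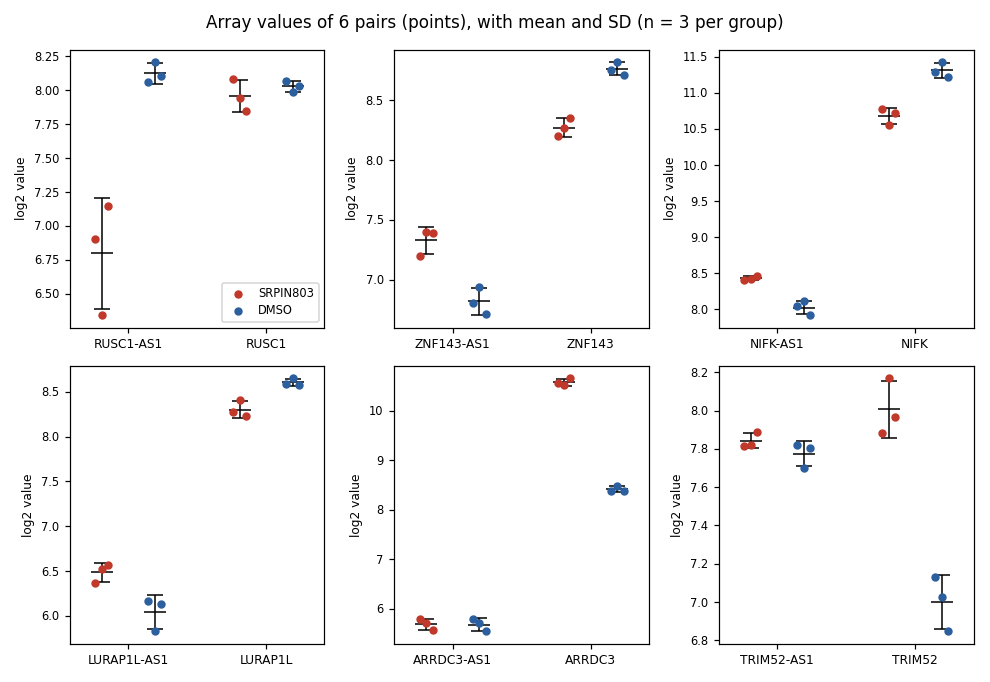
Log2 value on each array (points) with mean and SD (n = 3 per group) for 6 antisense genes and the genes they are named after, SRPIN803 left of DMSO. Only the 2 groups of 1 gene are to be set against each other, since values of different probe sets are not on 1 scale. RUSC1-AS1 is lower with SRPIN803 while RUSC1 overlaps, the next 3 pairs move apart, and ARRDC3 and TRIM52 are higher while their antisense genes overlap.

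In the other direction, the largest changes among partners came without a call in the antisense gene. ARRDC3, an arrestin-family gene whose protein sorts membrane receptors, had 10.563, 10.508 and 10.65 with SRPIN803, against 8.382, 8.486 and 8.377 with DMSO, a change of 2.16 ± 0.07 (limma, adjusted p = 1.65e-05). ARRDC3-AS1, which starts 250 bases away on the other strand, had 5.792, 5.715 and 5.568 with SRPIN803, against 5.792, 5.717 and 5.553 with DMSO. Its groups overlapped almost entirely, and its change was 0.00 ± 0.09. TRIM52, a ubiquitin ligase gene, rose by 1.01 ± 0.10, with 7.883, 8.168 and 7.966 on SRPIN803 arrays, against 7.129, 7.025 and 6.848 on DMSO arrays. TRIM52-AS1 had 7.817, 7.822 and 7.89 with SRPIN803, against 7.82, 7.699 and 7.803 with DMSO, and changed by 0.07 ± 0.06. The TRIM52-AS1 groups overlapped, though the 2 starts lie 69 bases apart.

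SLC38A2, which encodes a neutral amino acid transporter, rose by 0.85 ± 0.15. Its probe set is marked as cross-hybridising and has a mean of 4.78, under the level asked of the members. SLC38A2 lost the call without DMSO array 1 or 3 or SRPIN803 array 2 or 3 (limma, adjusted p up to 0.0913). SLC38A2-AS1, starting 10 bases away, changed by 0.00 ± 0.07. The other partners called higher were EPHA5 (0.61 ± 0.06), TBX2 (0.56 ± 0.08), ZNF667 (0.35 ± 0.06), ITGB8 (0.34 ± 0.06), ZNF232 (0.30 ± 0.06) and MBNL1 (0.27 ± 0.05). Their antisense genes were higher on every treated array than on any DMSO array without passing the test: EPHA5-AS1 by 0.24 ± 0.08, TBX2-AS1 by 0.34 ± 0.09, ZNF667-AS1 by 0.17 ± 0.06, ITGB8-AS1 by 0.21 ± 0.06, ZNF232-AS1 by 0.12 ± 0.06 and MBNL1-AS1 by 0.42 ± 0.10. EPHA5 and TBX2, an ephrin receptor and a T-box factor, kept the call with any 1 array left out, and ITGB8, ZNF232 and MBNL1 lost it in all 6 of those fits. The direction of 2 of these depends on the probe set: MBNL1 log2 change was -0.10 without cross-hybridising and shared probe sets, and ITGB8 log2 change was -0.003 with the mean of all probe sets, neither called. ZNF667 lost it in 5, all but that without SRPIN803 array 1.

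The other partners called lower were INTS6, HHIP and URB1. INTS6, a subunit of the Integrator complex, fell by 0.48 ± 0.07, with 8.897, 8.681 and 8.781 with SRPIN803, against 9.268, 9.323 and 9.203 with DMSO. INTS6-AS1 had 5.943, 6.091 and 6.223 with SRPIN803, against 5.702, 5.581 and 5.843 with DMSO. The antisense arrays were all higher with SRPIN803, but its change of 0.38 ± 0.10 missed the threshold (limma, adjusted p = 0.0656). A further probe set of INTS6-AS1, at a mean of 5.35, changed by 0.94 ± 0.07 and was called over all probe sets (limma, adjusted p = 0.00201), so the absence of a call rests on the main probe set. INTS6 lost its call without DMSO array 1 or 2 (adjusted p up to 0.0597). URB1, a ribosome biogenesis factor, fell by 0.37 ± 0.07 and HHIP, a hedgehog-binding protein gene read at a mean of 3.50, fell by 0.39 ± 0.09. Their antisense genes changed by 0.14 ± 0.06 and 0.22 ± 0.10, not called. HHIP log2 change turned to 0.11, not called, without cross-hybridising and shared probe sets. Both partners lost the call in 5 of 6 fits with 1 array left out, all but that without SRPIN803 array 1.

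The placement of an antisense gene was read from the start sites in the promoter table and from overlapping gene records. In 78 members a start lay within 1 kb of a start of the partner on the other strand: 18 of them were called higher (23.1%) and 1 lower, with a median change of 0.185 and 72 above 0. In 64 members the 2 genes overlapped with starts further apart: 14 were called higher (21.9%), with a median of 0.146 and 44 above 0. For 58 members 1 or both genes were not in the promoter table, and 10 of them were called higher (17.2%), with a median of 0.16. In 2 members the genes lay on opposite strands without overlap and in 1, FAM131B-AS2, on the same strand, none of them called. The partners' medians in the first 3 sets were 0.018, 0.00225 and 0.0187. The sets were not tested against each other, and RBMS3-AS3 is among the 58.

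A second probe set gave a check for some members. Of the 203, 112 had 1 probe set and 91 had more, with 146 further probe sets, of which 38 had a mean of 5.5 or more. Of these 38, 30 changed by more than 0, 6 were called higher and 0 lower by limma over all probe sets. The same fit called 418 of the main probe sets of all 19775 genes higher. For members called higher, 13 of 15 further probe sets at that level were above 0, with a median of 0.282. ERCC6L2-AS1 had a further probe set at 0.83 ± 0.14 and OTUD6B-AS1 at 0.45 ± 0.07, both called (limma, adjusted p = 0.0239 and 0.0179). THUMPD3-AS1 had further ones at 0.45 ± 0.10 and 0.40 ± 0.08 (0.0546 and 0.0493), and the second, the only one called, is marked as cross-hybridising. Under the level of 5.5, further probe sets of DLGAP1-AS2 (0.76 ± 0.09), FGF14-AS2 (0.43 ± 0.09) and INTS6-AS1 (0.94 ± 0.07) were called higher as well. Most further probe sets under the level were not called. Those of TTC28-AS1 changed by 0.12 ± 0.09 and 0.03 ± 0.08, and that of PARD6G-AS1 by -0.04 ± 0.06. Counted at any level, 30 of the 39 further probe sets of members called higher were above 0, beside 56.1% of the main probe sets of all genes.

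Other further probe sets moved apart from the main one. The widest disagreement was in GABPB1-AS1, at -0.20 ± 0.10 on its main probe set and 0.99 ± 0.11 and 0.64 ± 0.12 on the 2 further ones at the level, which make up the 6 called together with those of ERCC6L2-AS1, OTUD6B-AS1, THUMPD3-AS1 and MAPKAPK5-AS1. MAPKAPK5-AS1 had further probe sets at 0.70 ± 0.08, 0.27 ± 0.08 and -0.12 ± 0.10, of which the first was called (limma, adjusted p = 0.00596). That of DLGAP1-AS1 changed by -0.07 ± 0.22, and those of PSMB8-AS1 and CKMT2-AS1, at means of 5.00 and 5.10, by -0.06 ± 0.10 and 0.14 ± 0.14. That of NIFK-AS1, at a mean of 4.70, changed by -0.09 ± 0.07. Whether each probe set reads the antisense strand and 1 transcript alone was not checked, because no probe sequences were used. Of the members 10 were read from a probe set marked as cross-hybridising and 18 from one shared within a family, and 0 of either kind were among the 43 called.

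Genes of the machinery that makes, trims and silences such RNAs were called at shares of 0 to 11.1% per list, around the 5.84% of all genes, which is no result about the lists. In the nuclear exosome and its adaptors, which degrade short-lived nuclear RNA, 1 of 18 rose (ZFC3H1, 0.56 ± 0.08) and 1 fell (EXOSC4, -0.36 ± 0.08). In Integrator and early termination factors 0 of 20 rose and 1 fell, INTS6 as above. In cleavage and polyadenylation 1 of 18 rose, CSTF3 at 0.58 ± 0.06 (limma, adjusted p = 0.00306), and 0 fell. The groups did not overlap in 6 of these 18 (33.3%), all higher, where all genes had 15.2% higher and 10.4% lower. Of the 18, 17 were at 5.5 or more, and over all genes at that level the shares were 20.4% and 14.5%. Other lists leaned lower by this count. In the exosome list 5 of 18 were lower (27.8%) and 2 higher, and among genes that handle double-stranded RNA 5 of 23 were lower (21.7%) and 2 higher. The summed log2 values of the cleavage and polyadenylation list were 164.59 to 165.86 with SRPIN803, against 163.45 to 163.98 with DMSO. The part of this shift in the members' change was not tested. Among U1 snRNP genes, which hold off early polyadenylation, 0 of 7 were called, with LUC7L3 nearest at 0.26 ± 0.06 (0.0556). Of 23 genes that handle double-stranded RNA 0 rose and 2 fell, the nuclear exporter XPO5 at -0.59 ± 0.06 and AGO2 at -0.36 ± 0.08. Of 13 genes of silencing complexes 0 rose and 1 fell, EHMT1 at -0.24 ± 0.05. The medians of these 6 lists ran from -0.012 to 0.0466, beside 0.0192 over all genes.

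The arrays were alike in their general measures. Their medians ran from 5.252 to 5.277, and Pearson's r between arrays over all probe sets was 0.9957 to 0.9977 within groups and 0.994 to 0.9961 between them. RNA quality was read from the log2 ratio of the 5′ to the 3′ control probe set for beta-actin, which was -1.76 ± 0.36 with SRPIN803 and -1.77 ± 0.31 with DMSO (SD, n = 3 each). Of 14 markers of retinal pigment epithelium 1 rose, MITF at 0.35 ± 0.07, and 0 fell, and KRT8, KRT18 and OTX2 were high at means of 12.1, 13.8 and 10.5. RPE65 and TYRP1, defining genes of the mature tissue, read 2.33 and 3.21. Of the markers of fibroblasts, endothelium and immune cells 0 of 10, 0 of 7 and 0 of 6 were called. Of those of neurons and photoreceptors 1 of 7, TUBB3, was called and fell (14.3%, beside 5.84% of all genes). The changes of 6 of these 7 were above 0, and 2 were higher on every treated array (28.6%, beside 15.2% of all genes). On lists this short such counts are no result. The summed log2 values of the immune markers were 26.19 to 26.64 with SRPIN803, against 25.68 to 25.93 with DMSO, with PTPRC at 2.82 and CD14 at 3.72. Their part in the result was not tested. In bulk RNA of this kind a change in the share of cells and a change in RNA per cell cannot be told apart.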

How the data were processed

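Expression was measured on Affymetrix 3′ arrays, 3 from SRPIN803-treated and 3 from DMSO-treated ARPE-19 cells, grouped by the agent label. The authors deposited log2 values, 1 per probe set and array. Per the submitters' processing notes they were computed by RMA, with software, version and options not given in the sources used here. RMA corrects background, normalizes between arrays and compresses changes of dim probe sets, and at equal rank the 6 arrays were within 0.137 of each other, so a change in total RNA per cell cannot be seen. There is no read depth for arrays, so precision is limited by the number of arrays.

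The deposited log2 values were used unchanged. Of 54675 probe sets 41091 named 1 gene in the platform annotation, 1801 named several and 62 were controls. Each of 19775 genes was read from its brightest probe set naming it alone. SRPIN803 was set against DMSO in limma 3.58.1 under R 4.3.3. Its functions lmFit and eBayes fitted a model of group alone, which left 4 residual degrees of freedom. Tests were two-sided, p-values were adjusted by Benjamini-Hochberg across every gene fitted, and an adjusted p under 0.05 was a call. Errors beside changes are limma's standard errors. Members, gene lists, tests and most alternatives were chosen with earlier results of these data known. Named are every called member and partner, the 6 members with the highest values, the 2 nearest the level on each side, the 3 with the widest spread, for named members their partners, and for gene lists the called genes. Promoter windows are RefSeq's for GRCh38.p14, searched as letters. The fit was tested on simulated data. Alternatives were arrays left out, replicate blocks, other gene filters, probe set choices, normalizations, limma options and thresholds. An exact permutation test of 3 against 3 arrays is too small to pass the threshold and was not used.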

Additional observations from a re-analysis of the deposited data

How the results depend on the processing

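The count of 42 antisense genes called higher became 69 when only genes at 5.5 or more were fitted, 64 at an adjusted p under 0.1 and 16 with a fold of at least 1.5 asked as well. Of these 16, 12 had both group means at 5.5 or more. With 1 array left out the count of 42 ran from 22 to 37. The 1 call lower became 2 with genes at the median or more, and 2 with limma's trend, with or without its robust option. The 9 partners called higher ran from 4 to 7 with 1 array left out, and were 16 with genes at 5.5 or more, 15 with genes at the median or more, 14 with trend, 15 with trend and robust, 16 at an adjusted p under 0.1 and 4 with the fold. The 6 partners called lower ran from 2 to 5 with 1 array left out, and 1 passed the fold. The members' median change of 0.171 became 0.212 over members at the median or more and 0.126 with a level of 5.0, and it ran from 0.164 to 0.19 with 1 array left out. The cause of these shifts was not tested, apart from the fewer arrays, members or wider thresholds that these alternatives use. The RUSC1-AS1 log2 change kept its call under every alternative run, from -1.50 to -0.88 with the mean of all probe sets. Over all genes 1154 calls became 324 to 687 with 1 array left out, 1940 with genes at 5.5 or more, 1944 with genes at the median or more, 1965 with trend and 2036 with trend and robust.

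Of 738 refits of the 42 genes called higher, 618 kept the call, 120 lost it and 0 changed direction. With the replicate number as a block, 32 antisense genes were called higher and 1 lower, 7 partners higher and 4 lower, and 689 genes in all, and the members' median stayed at 0.171. Arrays of the same number share only that number: their deviations from the group means correlated at 0.179, -0.0608 and 0.107, and not every array deviated most like the array of its own number in the other group, a hint from the data and not from the design. Asking both group means to be at 5.5 or more was an alternative chosen after seeing the data.

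Changes of single genes turned direction only where they were not called under the alternative. With 1 array left out WAC-AS1 ran from -0.006 to 0.105, MSC-AS1 from -0.022 to 0.073, ZNF503-AS2 from -0.019 to 0.085, FRMD6-AS1 from -0.281 to 0.171, WDFY3 from -0.094 to 0.011, ZNF529 from -0.006 to 0.065, PSMA3 from -0.013 to 0.1, FGF14 from -0.167 to 0.126, LIF from -0.004 to 0.037 and NINJ2 from -0.007 to 0.214. With the mean of all probe sets ITGB8 was at -0.003, SCAMP1 at -0.229, ERCC6L2 at -0.01, PARD6G at -0.065, FGF14 at 0.009 and EMC3 at -0.027. Without cross-hybridising and shared probe sets HHIP was at 0.108 and MBNL1 at -0.102. The cause was not tested.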
